A study of Homo sapiens with 6 samples.

Results

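The integrated stress response (ISR) and the tRNA synthetases were examined here as a set of 44 genes in OVCAR5 ovarian cancer cells and in OVCAR5R, a derivative resistant to the CHK1 inhibitor prexasertib. The set was chosen by symbol and held 18 cytosolic aminoacyl-tRNA synthetases, the ATF4 pathway, and serine and amino acid synthesis genes. The cytosolic synthetase subunits FARSA and FARSB were not in it and belong to another list below. It was assembled with OVCAR5R against OVCAR5 already known, and the lower value of AARS in OVCAR5R was part of the reason for the choice, so every difference between the cell lines below is given as a description. Of the 44 genes, 43 were listed in the table and all 43 were among the 11766 genes tested out of 12308 different rows. NUPR1, a stress-induced chromatin protein, was not analyzed here.

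RNA-seq was done on 3 libraries of OVCAR5 and 3 of OVCAR5R, the labelled replicates 1 to 3 of each line. OVCAR5R was selected from OVCAR5 by raising prexasertib up to 3 µM over 3 to 4 months, was kept at 2 µM, and was cultured without the drug for at least 4 days before use, whereas OVCAR5 was the untreated parent. Both lines grew in RPMI1640 with L-glutamine, 10% FBS, penicillin/streptomycin, 1 mM sodium pyruvate, and insulin at 5 µg/ml. OVCAR5R is 1 resistant line from 1 parent. Per the study's supplementary methods the 3 replicates of each line were separate cultures, so tests measure the spread between cultures of these lines. The deposited values summed to 937274 to 1038240 per library, and the size of 1 estimated read gave about 35.8 to 41.3 M reads per OVCAR5 library and 50.3 to 55.1 M per OVCAR5R library.

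When amino acids run short or unfolded protein builds up, the kinases GCN2 (gene EIF2AK4) and PERK (gene EIF2AK3) phosphorylate the initiation factor eIF2, most translation slows, and the mRNA of the transcription factor ATF4 is translated more efficiently. ATF4, often paired with a C/EBP protein, then switches on genes that charge tRNAs, import and make amino acids, and in the end reset or kill the cell. Aminoacyl-tRNA synthetases join each amino acid to its tRNA, and several of the cytosolic enzymes sit in a large multisynthetase complex. ATF4 protein and eIF2 phosphorylation were not measured in these libraries, which hold RNA alone.

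The 43 genes had in the main a lower mean in OVCAR5R, and none passed the adjusted threshold. By limma on log2(value + 1), 0 of the 43 had a Benjamini-Hochberg adjusted p under 0.05, against 0.119% of all genes tested. At an unadjusted p under 0.05, 9 were lower, against 6.25% of all genes, and 2 were higher, against 4.14%. The mean was lower in OVCAR5R for 34 of the 43, against 50.8% of all genes, and the median log2 fold change was -0.40, beside -0.01 for all genes tested. Every OVCAR5R library lay below every OVCAR5 library for ATF4, PSPH, GPT2, and PYCR1, 4 genes where the share over all genes was 8.18%, and above for ATF5 and STC2, 2 genes where that share was 8.4%. These counts come from the same contrast that was known when the genes were chosen, and nothing further is read from them.

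**Figure D1:**
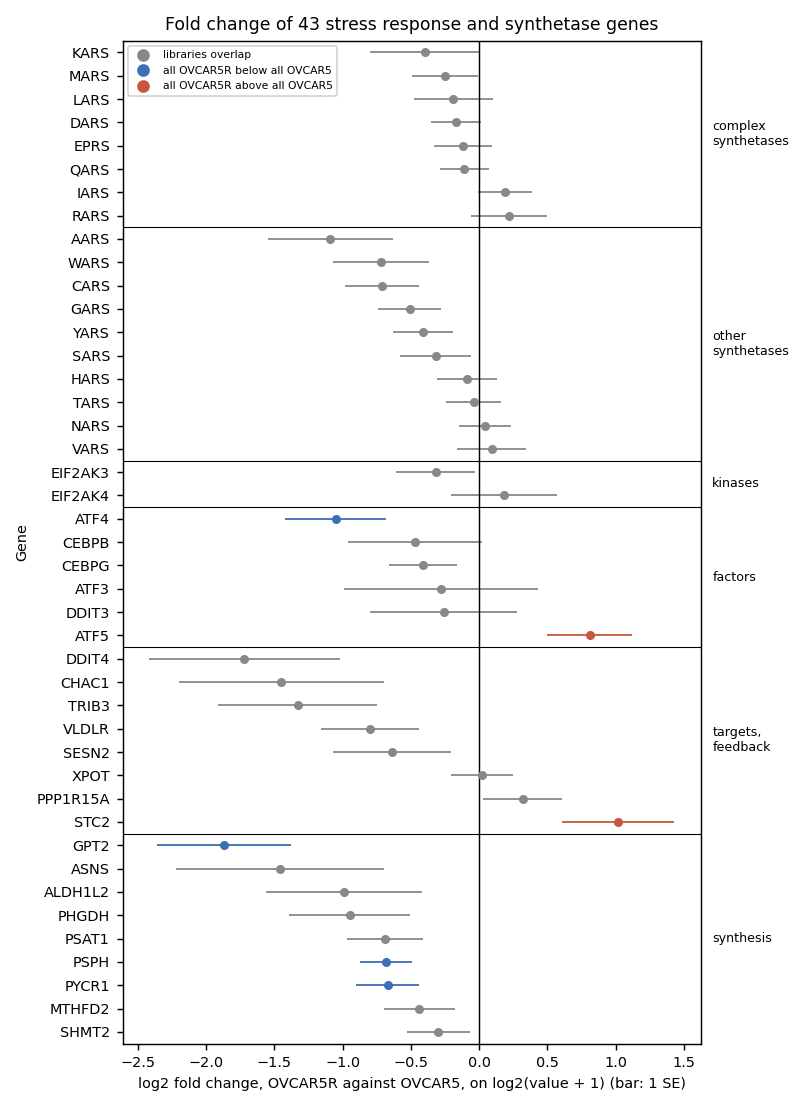
Log2 fold change of OVCAR5R against OVCAR5 on log2(value + 1) for the 43 genes (points, with bars of 1 SE from limma, 3 libraries per line), grouped by role. The points run from -1.87 for GPT2 to 1.02 for STC2, and all 9 synthesis genes lie left of 0.

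The lower means in OVCAR5R went with high values in OVCAR5 replicates 1 and 2, whereas OVCAR5 replicate 3 held many of these mRNAs at OVCAR5R levels. OVCAR5 replicate 3 was the lowest of the OVCAR5 libraries for 31 of the 43 genes, replicate 1 for 3, and replicate 2 for 9. Over all genes tested, those shares were 30.8%, 29.5%, and 39.7%. OVCAR5 replicate 3 was at or below the highest OVCAR5R library for 33 of the 43, replicate 1 for 12, and replicate 2 for 14. Over all genes the shares were 75%, 68.8%, and 64.9%. The count for replicate 3 was thus close to its share over all genes, whereas those for replicates 1 and 2 were well below theirs. For 9 of the 43, replicate 3 was the lowest of all 6 libraries, against 13% of all genes.

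Set against each gene's mean over the 6 libraries, the median of the 43 genes was 0.36 in OVCAR5 replicate 1, 0.46 in replicate 2, and -0.21 in replicate 3 on the log2 scale. The OVCAR5R libraries, in the same order, were at -0.25, -0.07, and -0.27. The median over all genes tested lay between 0.00 and 0.02 in each library. The OVCAR5 libraries were therefore split for these genes, with replicate 3 inside the range of OVCAR5R and the other two above it. The SD of the log2 value was larger in OVCAR5 than in OVCAR5R for 36 of the 43 genes, against 65.6% of all genes, with a median SD of 0.52 in OVCAR5 and 0.23 in OVCAR5R, beside 0.34 and 0.25 for all genes. Without OVCAR5 replicate 3 the median log2 fold change of the 43 was -0.63, whereas without replicate 1 or 2 it was -0.29 or -0.28.

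**Figure D2:**
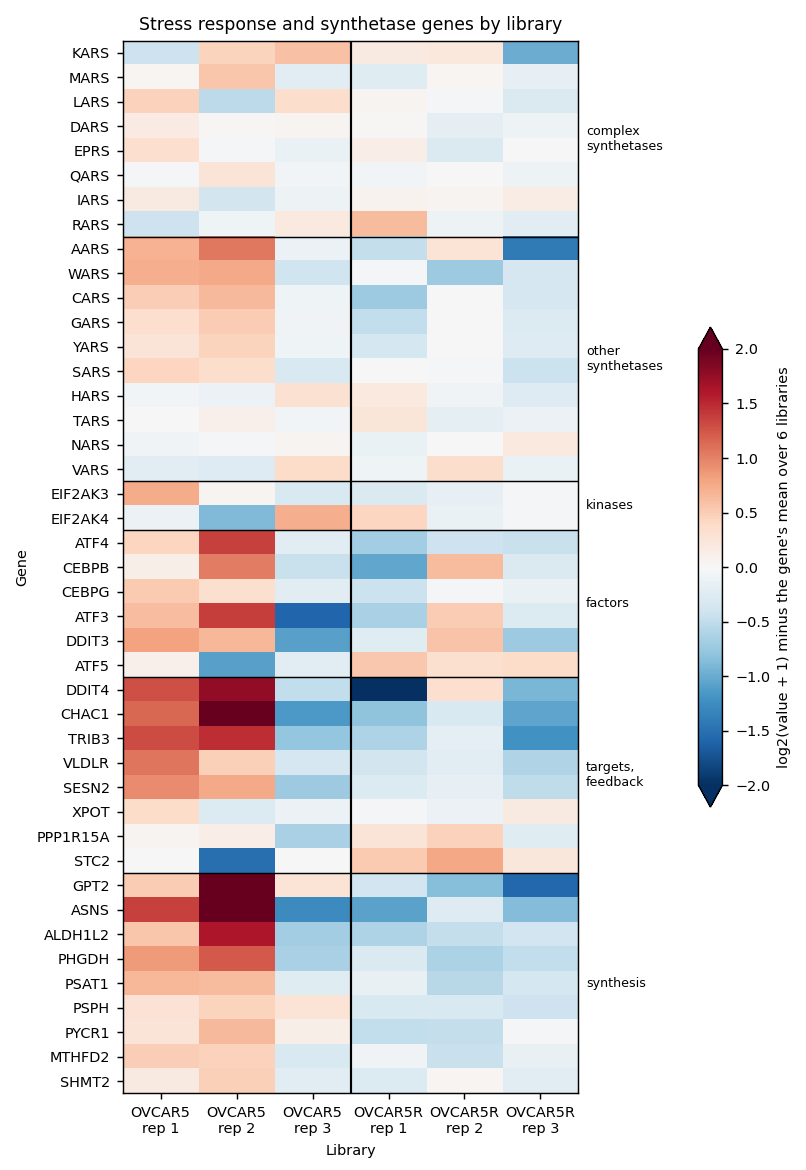
Each cell is a gene's log2(value + 1) in a library minus its mean over the 6 libraries (color scale in log2 units, capped at 2 either way), with genes grouped by role in rows and libraries in columns. Warm cells gather in OVCAR5 replicates 1 and 2 among the targets and synthesis genes. OVCAR5 replicate 3 is cool for most of these genes, as are most OVCAR5R cells. It is warm for PSPH, GPT2, and PYCR1, at 0.27, 0.28, and 0.11.

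OVCAR5 replicate 2 stood apart in another way. Across the genes tested its log2 values had a Pearson r of 0.898 and 0.883 with OVCAR5 replicates 1 and 3, which had 0.955 with each other, and the OVCAR5R libraries had 0.947 to 0.963 among themselves. EPCAM was 597 in OVCAR5 replicate 2 and 11.9 to 31.7 in the other libraries, and KRT19 was 1340 there and 3.09 to 10.7 elsewhere. KRT7, KRT8, and KRT18 were also highest in replicate 2. Of the other markers, PAX8 was at 4.38 to 11.4 and WT1 below 1 in every library, CD68 was at 40.7 to 72.8, CD14 at 2.02 to 20.2, and COL1A1 at 1.29 to 15.2. CDH1, MUC16, and 11 of the 14 fibroblast, immune, and endothelial markers had no row and were not analyzed here. The part of these epithelial differences in the values below was not tested, and in bulk RNA fewer cells of a type cannot be told apart from less RNA per cell.

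Among the stress transcription factors, ATF4, the central activator of the response, was 289, 550, and 183 in the OVCAR5 libraries (here and below in the order of replicates 1 to 3) and 131, 159, and 156 in those of OVCAR5R. All OVCAR5R libraries were below all OVCAR5 libraries, but the gap from OVCAR5 replicate 3 to the nearest OVCAR5R library was small beside the spread within OVCAR5. The mean was 341 ± 189 (SD, n = 3) in OVCAR5 and 149 ± 15.2 in OVCAR5R, a log2 fold change of -1.05 ± 0.37 (SE).

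ATF3, a stress-inducible repressor downstream of ATF4, was 10.8, 19.1, and 1.57 in OVCAR5 and 3.90, 9.92, and 5.31 in OVCAR5R. DDIT3, which encodes the pro-apoptotic factor CHOP, was 28.1, 25.6, and 6.95 in OVCAR5 and 13.2, 24.0, and 9.19 in OVCAR5R. For both genes OVCAR5 replicate 3 was the lowest of the 6 libraries and the cell lines overlapped, with log2 fold changes of -0.28 ± 0.71 and -0.26 ± 0.54 (SE). Without OVCAR5 replicate 2 the sign turned for both, to 0.34 for ATF3 and 0.01 for DDIT3, and without OVCAR5 replicate 3 the values were -1.14 and -0.86. The sign of DDIT3 also turned without OVCAR5 replicate 1 (0.08) or OVCAR5R replicate 3 (0.04). ATF5, a relative of ATF4, went the other way: it was 39.2, 16.7, and 31.0 in OVCAR5 and 53.3, 45.7, and 47.0 in OVCAR5R, a log2 fold change of 0.81 ± 0.31 (SE). All OVCAR5R libraries were above all OVCAR5 libraries, and the lowest was OVCAR5 replicate 2. The ATF4 partners CEBPB and CEBPG had log2 fold changes of -0.47 ± 0.49 and -0.41 ± 0.25 (SE), with overlapping libraries. Exons of DDIT3 overlap those of MARS and MBD6 on the opposite strand, and exons of ATF5 overlap those of NUP62, and the sources used here do not say whether counting used strand.

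For the kinases that start the response, the libraries of the cell lines overlapped. EIF2AK3 (PERK) was 43.0, 26.2, and 20.2 in OVCAR5 and 20.6 to 24.6 in OVCAR5R, a log2 fold change of -0.32 ± 0.29 (SE). EIF2AK4 (GCN2) was 119, 69.3, and 213 in OVCAR5 and 117 to 174 in OVCAR5R, a log2 fold change of 0.18 ± 0.39 (SE). In EIF2AK4 the order of the OVCAR5 libraries was the reverse of that in ATF4, with replicate 3 highest and replicate 2 lowest.

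Most of the ATF4 targets outside amino acid synthesis had OVCAR5 replicate 3 next to the OVCAR5R libraries. TRIB3, a pseudokinase that restrains ATF4 activity, was 178, 200, and 41.4 in OVCAR5 and 46.7, 62.8, and 30.4 in OVCAR5R. CHAC1, which degrades glutathione, was 12.3, 26.0, and 1.70 in OVCAR5 and 2.41, 3.86, and 1.88 in OVCAR5R. In both genes OVCAR5 replicates 1 and 2 were above every OVCAR5R library, and replicate 3 was inside the OVCAR5R range for TRIB3 and below it for CHAC1. TRIB3 in OVCAR5 replicate 1 was 4.29 times and in replicate 2 was 4.84 times its value in replicate 3, and CHAC1 7.24 and 15.3 times. The log2 fold changes between the lines were -1.33 ± 0.58 for TRIB3 and -1.45 ± 0.75 for CHAC1 (SE). Without OVCAR5 replicate 3 they were -2.05 and -2.38, and without OVCAR5 replicate 2 they were -0.93 and -0.72.

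DDIT4 (REDD1), an inhibitor of mTORC1 signaling, was 241, 340, and 69.1 in OVCAR5 and 23.8, 123, and 51.6 in OVCAR5R. OVCAR5R replicate 2 was above OVCAR5 replicate 3, so the lines overlapped, and the log2 fold change was -1.72 ± 0.70 (SE), or -2.40 without OVCAR5 replicate 3 and -2.31 without OVCAR5R replicate 2. SESN2, another restraint on mTORC1, was 27.9, 24.4, and 8.16 in OVCAR5 and 9.62 to 12.4 in OVCAR5R. VLDLR, a lipoprotein receptor that is an ATF4 target, was 30.7, 19.9, and 10.9 in OVCAR5 and 8.92 to 11.8 in OVCAR5R. Both showed the same order, with replicate 3 lowest within OVCAR5.

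Some members of this group did not follow. PPP1R15A (GADD34), the phosphatase subunit that removes phosphate from eIF2 and ends the response, was 110, 116, and 67.0 in OVCAR5 and 127, 146, and 89.5 in OVCAR5R, a log2 fold change of 0.32 ± 0.29 (SE). It shared the low OVCAR5 replicate 3 but not the lower mean in OVCAR5R. STC2, a secreted glycoprotein, was 236, 82.9, and 236 in OVCAR5 and 345, 408, and 277 in OVCAR5R, the highest log2 fold change of the set at 1.02 ± 0.41 (SE). All OVCAR5R libraries were above all OVCAR5 libraries, and the low library here was OVCAR5 replicate 2. XPOT, which exports tRNA from the nucleus, had a log2 fold change of 0.02 ± 0.23 (SE).

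**Figure D3:**
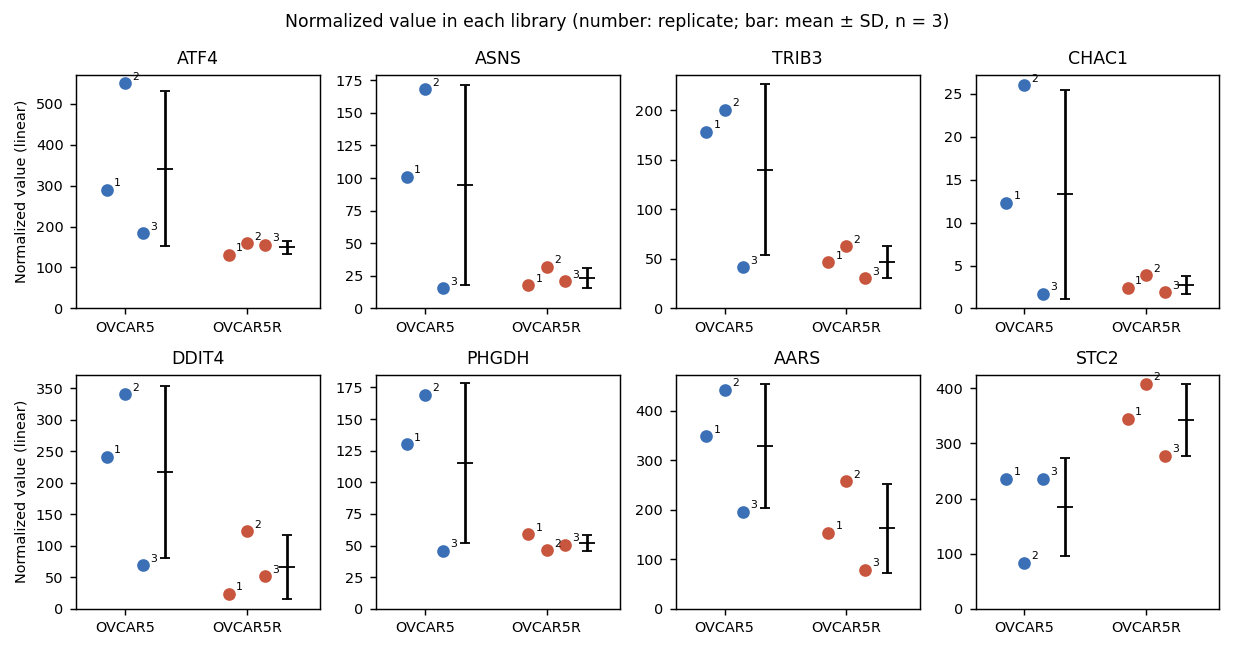
Normalized value on a linear scale in each library for ATF4, ASNS, TRIB3, CHAC1, DDIT4, PHGDH, AARS, and STC2 (points numbered by replicate, with the mean and SD of 3 libraries beside them). In all but STC2, OVCAR5 replicate 3 lies far below OVCAR5 replicate 2, and its ASNS value of 15.5 is under the lowest OVCAR5R value of 17.9.

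All 9 genes of serine, folate, and amino acid synthesis had a lower mean in OVCAR5R, with log2 fold changes from -1.87 to -0.30, and in all 9 the lowest OVCAR5 library was replicate 3. ASNS, which makes asparagine and is a standard readout of ATF4 activity, was 101, 168, and 15.5 in OVCAR5 and 17.9, 32.1, and 20.8 in OVCAR5R. OVCAR5 replicate 1 had 6.53 times and replicate 2 had 10.9 times the ASNS of replicate 3, while the OVCAR5R libraries were all within the gap between replicates 1 and 3. The means were 94.9 ± 76.7 and 23.6 ± 7.53 (SD, n = 3), and the log2 fold change was -1.46 ± 0.76 (SE). It was -0.78 without OVCAR5 replicate 2 and -2.46 without OVCAR5 replicate 3.

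The serine branch starts with PHGDH, its first enzyme, which was 130, 169, and 45.7 in OVCAR5 and 58.8, 46.2, and 50.5 in OVCAR5R. PSAT1, the aminotransferase of the next step, was 114, 112, and 60.0 in OVCAR5 and 64.5, 48.7, and 56.1 in OVCAR5R. Both overlapped only through OVCAR5 replicate 3, with log2 fold changes of -0.95 ± 0.44 and -0.69 ± 0.28 (SE). PSPH, the phosphatase that completes serine, behaved differently: it was 47.5, 53.3, and 46.7 in OVCAR5 and 31.2, 31.1, and 28.8 in OVCAR5R. The 3 OVCAR5 libraries were close together and all OVCAR5R libraries lay below them, with means of 49.2 ± 3.58 and 30.3 ± 1.38 (SD, n = 3) and a log2 fold change of -0.68 ± 0.19 (SE).

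Downstream of serine, SHMT2, the mitochondrial enzyme that passes a carbon unit from serine to folate, was 221, 272, and 168 in OVCAR5 and 162, 200, and 168 in OVCAR5R, a log2 fold change of -0.30 ± 0.23 (SE). MTHFD2, the next mitochondrial folate enzyme, was 245, 240, and 142 in OVCAR5 and 128 to 166 in OVCAR5R. Both overlapped through OVCAR5 replicate 3. ALDH1L2, which also uses mitochondrial folate, was 2.87, 7.15, and 0.634 in OVCAR5 and 0.716 to 1.02 in OVCAR5R. It was the lowest of the 43 genes in every library, at 25 estimated reads in OVCAR5 replicate 3, and its log2 fold change of -0.99 ± 0.57 (SE), or -1.58 without OVCAR5 replicate 3, is understated by the added 1.

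GPT2, the mitochondrial alanine aminotransferase, was 32.3, 94.0, and 27.4 in OVCAR5 and 16.9, 12.0, and 6.88 in OVCAR5R. Its log2 fold change of -1.87 ± 0.49 (SE) was the lowest of the 43. PYCR1, which makes proline, was 136, 180, and 123 in OVCAR5 and 81.2, 81.8, and 112 in OVCAR5R, a log2 fold change of -0.67 ± 0.23 (SE). For both genes all OVCAR5R libraries were below all OVCAR5 libraries, and OVCAR5 replicate 2 was highest. Without OVCAR5 replicate 2, the log2 fold change of GPT2 was -1.33 and that of PYCR1 was -0.51. Exons of PYCR1 overlap those of AC145207.4 on the opposite strand, and exons of ALDH1L2 overlap those of C12orf45.

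The synthetases showed the same order of libraries only in part. Of the 18, the mean was lower in OVCAR5R for 14, the median log2 fold change was -0.18, and OVCAR5 replicate 3 was the lowest OVCAR5 library for 10. For the 25 other genes the median was -0.64, and OVCAR5 replicate 3 was the lowest OVCAR5 library for 21 of them. The SD was larger in OVCAR5 for 12 of the 18 synthetases (66.7%), close to the 65.6% of all genes, and for 24 of the 25 other genes (96.0%).

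The median log2 fold change was -0.36 for the 10 synthetases outside the multisynthetase complex and -0.15 for the 8 inside it. AARS, the alanine enzyme, was 349, 443, and 196 in OVCAR5 and 153, 258, and 79.2 in OVCAR5R, with a log2 fold change of -1.09 ± 0.46 (SE), the lowest of the 18. OVCAR5R replicate 2 was above OVCAR5 replicate 3, so the lines overlapped. WARS (tryptophan), CARS (cysteine), GARS (glycine), YARS (tyrosine), and SARS (serine) followed, with log2 fold changes of -0.72 ± 0.35, -0.71 ± 0.27, -0.51 ± 0.23, -0.41 ± 0.22, and -0.32 ± 0.26 (SE). Each of these 5 had its lowest OVCAR5 value in replicate 3, for instance 285, 294, and 131 for WARS beside 104 to 170 in OVCAR5R. HARS (histidine), TARS (threonine), NARS (asparagine), and VARS (valine) lay between -0.09 and 0.09. The rank of AARS rested on 1 library. Without OVCAR5R replicate 3, AARS was at -0.65, WARS at -0.74, and CARS at -0.72.

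Within the complex, no gene had a log2 fold change beyond -0.40 to 0.22. RARS, the arginine enzyme, was 129, 162, and 196 in OVCAR5 and 268, 161, and 149 in OVCAR5R, a log2 fold change of 0.22 ± 0.28 (SE). IARS, the isoleucine enzyme, was 268, 185, and 222 in OVCAR5 and 249, 248, and 263 in OVCAR5R, a log2 fold change of 0.19 ± 0.20 (SE). Both overlapped widely, and OVCAR5 replicate 3 was not the lowest library in either. KARS (lysine) had the lowest log2 fold change of the complex, -0.40 ± 0.40 (SE), with 123 in OVCAR5R replicate 3 against 183 to 368 elsewhere. The remaining 5, for methionine (MARS), leucine (LARS), aspartate (DARS), glutamate and proline (EPRS), and glutamine (QARS), had log2 fold changes from -0.25 to -0.11. MARS, KARS, HARS, WARS, and YARS share exon sequence with a gene on the opposite strand, among them HARS with HARS2.

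Some of these genes lie in stretches of chromosome whose other genes also differed between libraries. AARS lies on the minus strand of chromosome 16 at 70252295 to 70289543 (GRCh38, GENCODE 29), with KARS at 75627474 to 75648643 and GPT2 at 46884378 to 46931297 on the same chromosome. In OVCAR5R replicate 3 the median of the 104 other tested genes within 10 Mb of AARS was -0.75 from their 6-library means, that of the 127 genes near KARS was -0.73, and that of the 32 genes near GPT2 was -0.82. AARS itself was at -1.42 there, KARS at -1.0, and GPT2 at -1.57, so all 3 genes and their neighbors were lowest in the same library. The neighbors' median log2 fold change between the lines was -0.49 around AARS, and AARS minus that median was -0.60. For KARS the difference from its neighbors was 0.08, and for GPT2 it was -1.49. ASNS lies on chromosome 7, where its 125 neighbors were at -0.68 in OVCAR5R replicate 1 and ASNS at -1.07. The median log2 fold change of those neighbors was -0.23, and ASNS minus that median was -1.23.

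ATF4 lies on chromosome 22 at 39519695 to 39522685, plus strand. The 166 genes within 10 Mb of it had a median log2 fold change of -0.53, against -1.05 for ATF4, a difference of -0.52. Set against 6-library means, these neighbors were at -0.53, -0.39, and 0.09 in OVCAR5R replicates 1 to 3, and ATF4 at -0.70, -0.42, and -0.45. In OVCAR5 the neighbors were at 0.18, 0.30, and 0.28, and ATF4 at 0.43, 1.36, and -0.22. ATF4 was thus close to its neighbors in OVCAR5R replicates 1 and 2. It was below them in OVCAR5R replicate 3 and also in OVCAR5 replicate 3. Over the 43 genes, the median log2 fold change minus that of the neighbors was -0.38, and 34 lay below their neighbors. For the complex synthetases the median moved from -0.15 to -0.05, and for synthesis genes from -0.69 to -0.84. DNA copy number was not analyzed here, and its part in these values was not tested.

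**Figure D4:**
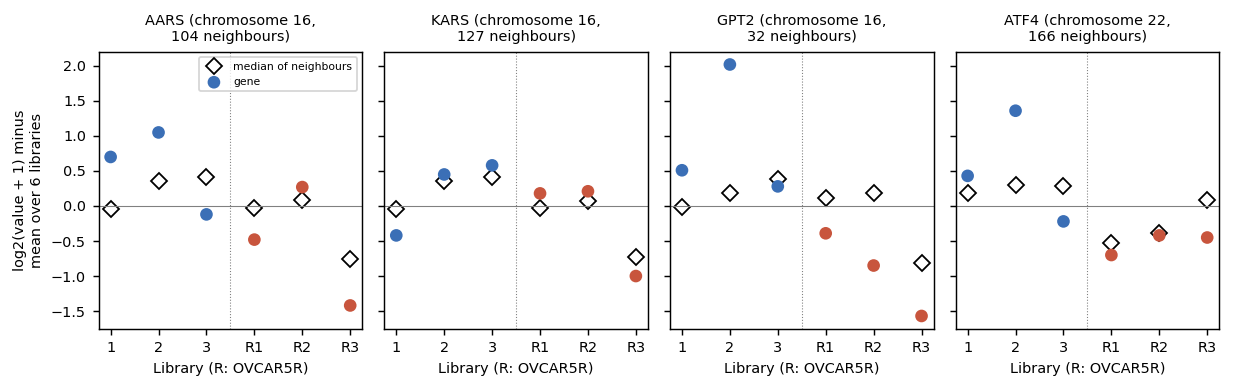
Log2(value + 1) minus the 6-library mean for AARS, KARS, GPT2, and ATF4 (filled circles, blue for OVCAR5 and red for OVCAR5R) and the median of the tested genes within 10 Mb (open diamonds), by library. In OVCAR5R replicate 3 the diamonds of the 3 chromosome 16 genes drop with the genes, while OVCAR5 replicate 2 holds ATF4 and GPT2 well above theirs.

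ATF4 and C/EBP proteins bind a composite element, the C/EBP-ATF response element, whose core was searched as TGATGNAA on both strands of the RefSeq promoter windows (250 bases before to 50 after the start, GRCh38.p14). The narrower form TGATGCAA is contained in it. Of the 44 genes, 34 were matched to a window, and DARS, LARS, VARS, YARS, NUPR1, PSPH, SHMT2, ALDH1L2, GPT2, and PYCR1 were not. TGATGNAA was found for 11 of the 34 (32.4%), against 4.46% of 27305 genes with windows, and TGATGCAA for 8 (23.5%), against 1.08%. The 11 were AARS, CARS, GARS, IARS, MARS, NARS, TARS, ASNS, CHAC1, CEBPG, and ATF3. The set was chosen to hold the ATF4 pathway, so a share above that of all genes was partly fixed by the choice. A match is a run of letters and not a measured binding site.

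The 7 matches that lie wholly before the start of the RefSeq window are shown with 11 bases on either side, 5′ to 3′ on the gene's strand, because they place the same core beside genes that differed in their values. Capitals mark the core, on either strand. In GENCODE 29 the stretches of GARS, ASNS, IARS, and CHAC1 overlap an exon of the same gene. That of CEBPG lies inside the gene, which starts at 33373330 there. The cores of these genes are therefore upstream by the RefSeq start only. The stretch of AARS lies before the GENCODE 29 start of AARS as well, and overlaps an exon of DDX19B.
AARS (chr16:70289675-70289704, minus strand): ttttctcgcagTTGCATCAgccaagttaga
GARS (chr7:30594834-30594863, plus strand): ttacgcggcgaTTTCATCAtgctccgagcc
IARS (chr9:92293692-92293721, minus strand): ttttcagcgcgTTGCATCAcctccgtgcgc
ASNS (chr7:97872458-97872487, minus strand): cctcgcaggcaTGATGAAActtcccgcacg
CHAC1 (chr15:40953251-40953280, plus strand): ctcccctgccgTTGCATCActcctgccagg
CEBPG (chr19:33374060-33374089, plus strand): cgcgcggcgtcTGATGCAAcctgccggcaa
ATF3 (chr1:212565205-212565234, plus strand): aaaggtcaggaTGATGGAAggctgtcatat
The core was found for ASNS and CHAC1, whose OVCAR5 libraries were far apart, and also for IARS, where they lay closer together and the log2 fold change was 0.19. TRIB3 and DDIT4, with log2 fold changes of -1.33 and -1.72, had windows without it. GARS, which also had the core, had its lowest OVCAR5 value in replicate 3, at 296 beside 390 and 444. The core was on the opposite strand for AARS, GARS, IARS, and CHAC1.

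The neighboring pathway lists, 85 tested genes in 7 lists that were drawn up with earlier results known, had 0 genes at an adjusted p under 0.05 by limma and 16 at an unadjusted p under 0.05, of which 6 were higher and 10 lower (over all genes 0.119%, 4.14%, and 6.25%). The amino acid transporters had a median log2 fold change of -0.71, with all 8 lower in mean and 5 (SLC7A5, SLC3A2, SLC38A2, SLC1A4, and SLC6A9) lower in every OVCAR5R library than in any OVCAR5 library, against 8.18% of all genes. They ran from -0.11 ± 0.30 (SE) for SLC7A1, an arginine and lysine transporter, to -1.70 ± 0.51 for SLC6A9, a glycine transporter that was 11.7, 12.5, and 3.85 in OVCAR5 and 0.716, 3.37, and 2.20 in OVCAR5R. SLC7A5 lies on chromosome 16, where its neighbors' median log2 fold change was -0.59 beside its own -0.67. For SLC3A2, SLC38A2, SLC1A4, and SLC6A9 the neighbors' medians lay between -0.06 and 0.18. OVCAR5 replicate 3 was the lowest OVCAR5 library for 4 of the 8 transporters. They differed from the targets in that their OVCAR5 libraries were less split, with median deviations of 0.43, 0.47, and 0.20.

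Further ATF4 targets had a median log2 fold change of -0.57 over 7 genes, which was -0.08 without OVCAR5 replicate 1, -0.28 without replicate 2, and -1.16 without replicate 3. GDF15, a stress-induced secreted factor, had the lowest, -2.55 ± 1.06 (SE), and was 18.2, 117, and 4.87 in OVCAR5 and 1.39, 10.5, and 1.38 in OVCAR5R. Its log2 fold change was -1.40 without OVCAR5 replicate 2, -3.56 without OVCAR5 replicate 3, and -3.31 without OVCAR5R replicate 2. GADD45A, a growth arrest gene, had the highest, 0.41 ± 0.22. Median deviations of the list were 0.98, 0.96, and -0.63 within OVCAR5, a wider split than in the 43 genes. The IRE1 and ATF6 arms of the unfolded protein response were split in the same way, with replicate 3 the lowest OVCAR5 library for 17 of 19 genes and a median log2 fold change of -0.34, or -0.63 without that library. HERPUD1, an endoplasmic reticulum degradation factor, had the lowest value at -1.20 ± 0.67 (SE), and ATF6, a sensor of unfolded protein, the highest at 0.23 ± 0.21. With a library left out HERPUD1 lay between -1.89 (OVCAR5 replicate 3) and -0.69 (OVCAR5 replicate 2 or OVCAR5R replicate 3). HERPUD1 lies on chromosome 16, where its neighbors' median log2 fold change was -0.39. In OVCAR5R replicate 3 these neighbors were at -0.75 from their 6-library means, and HERPUD1 was at -1.62.

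Other lists lay near or above 0. The 17 mitochondrial synthetases had a median log2 fold change of 0.19 (0.06 without OVCAR5 replicate 1, 0.31 without OVCAR5R replicate 2), with 13 higher in mean, and the lowest was -0.24 ± 0.29 (SE) for PARS2. Among them OVCAR5 replicate 3 was the lowest OVCAR5 library for 3 and the highest for 12. For the other cytosolic synthetase subunits and scaffolds, FARSA and FARSB among them, the median was 0.12 (0.01 without OVCAR5 replicate 1). They ran from -0.69 ± 0.20 (SE) for AIMP1 to 0.52 ± 0.24 for FARSB. AIMP1, a scaffold of the complex, was 50.2, 63.8, and 66.1 in OVCAR5 and 35.0 to 38.4 in OVCAR5R. In the eIF2 and eIF2B list the median was 0.13, and EIF2S1, the eIF2 subunit that the kinases phosphorylate, had the highest log2 fold change, 1.02 ± 0.21 (SE), with 179, 162, and 236 in OVCAR5 and 407, 345, and 407 in OVCAR5R. Its limma adjusted p of 0.192 was the smallest of the 85 genes. EIF2AK2 had the lowest at -0.23 ± 0.24. The other serine, folate, and amino acid genes had a median of -0.05 (0.13 without OVCAR5R replicate 3), from -1.17 ± 0.42 (SE) for CBS, a cysteine synthesis enzyme, to 0.62 ± 0.22 for MTHFD1, the cytosolic folate enzyme. EIF2S1 and MTHFD1 both lie on chromosome 14, where their neighbors' median log2 fold change was 0.54 and 0.57, and AIMP1 lies on chromosome 4, where it was -0.76. The part of position in these values was not tested.

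**Figure D5:**
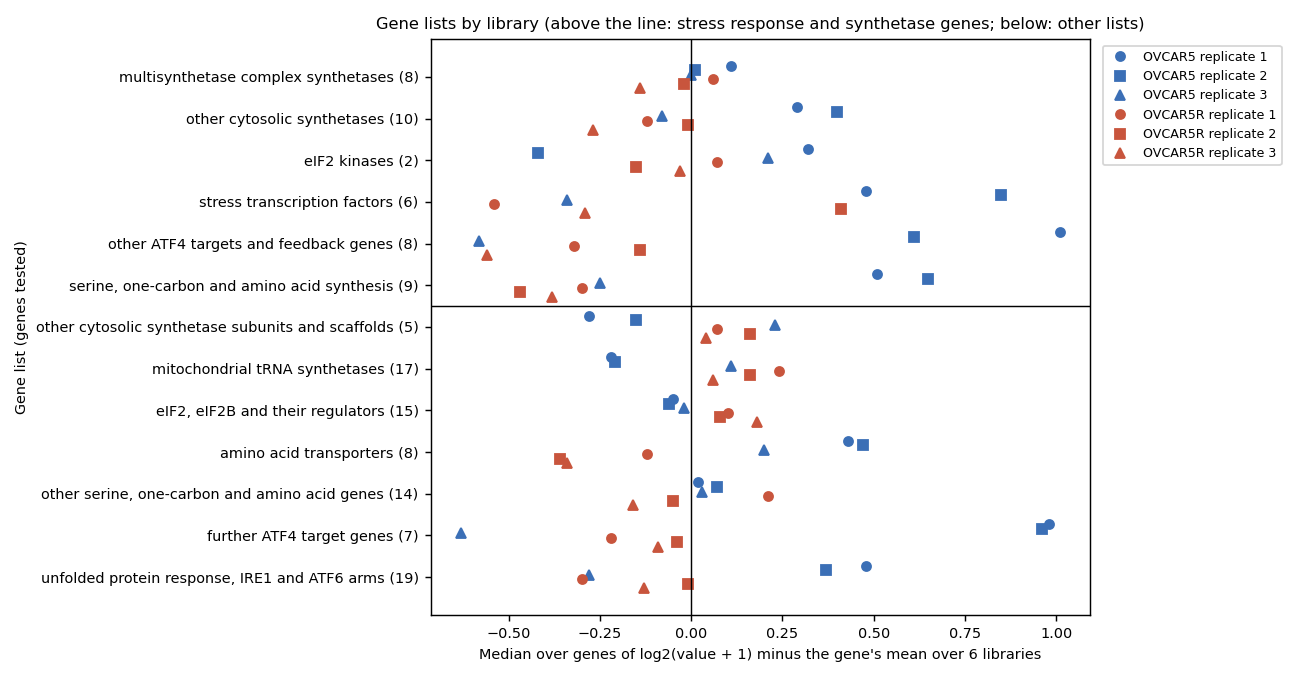
Median over each list of log2(value + 1) minus the gene's 6-library mean, by library (blue OVCAR5, red OVCAR5R, marker shape by replicate), for the 6 roles of the 43 genes and the 7 other lists, with the number of genes tested in brackets. OVCAR5 replicate 3 lies below OVCAR5 replicates 1 and 2 for factors, targets, synthesis genes, further targets, and the unfolded protein response, for instance at -0.58 for the targets. For further targets, at -0.63, it is also below every OVCAR5R library. The OVCAR5R libraries are themselves spread for the factors, at -0.54, 0.41, and -0.29.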

How the data were processed

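RNA-seq of total RNA from 3 libraries each of OVCAR5 and OVCAR5R was analyzed from the table that the authors deposited, a normalized signal on a linear scale by gene symbol. Per the paper's methods the data were quartile normalized, the submitters' processing notes name hg38, and the aligner, counter, annotation, and use of strand are not given in the sources used here. The signal moves in steps worth 1 estimated read, and 62.1% to 67.1% of values were whole multiples within 0.01 of a step, so count tests were not used. A row deposited in identical copies was kept once.

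Groups came from the labels. The test was limma (release 3.58.1, run under R 4.3.3; lmFit, then eBayes with a variance trend) on log2(value + 1) of genes that reached 1 in 3 or more of the 6 libraries, without covariates, with Benjamini-Hochberg adjustment at 0.05 over all 11766 genes. A fold change on this scale understates the change of low genes. The script was tested on simulated data. The number of libraries, 3 per line, and the depth both limit precision.

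The members and lists were chosen with earlier results of these data known. Named with every library's value were the central genes of the pathway (AARS, ATF4, ATF3, DDIT3, TRIB3, CHAC1, ASNS, PHGDH, PSAT1, and SHMT2), members whose libraries did not overlap between the lines, and the 5 highest and 5 lowest log2 fold changes. In each other list, the highest and the lowest were named, except for a result that is not reported here. EIF2AK3, EIF2AK4, KARS, WARS, SESN2, VLDLR, MTHFD2, and ALDH1L2 were given library values after their values were seen. Positions came from GENCODE 29 and promoter windows from RefSeq (GRCh38.p14). Neighbors were the other tested genes within 10 Mb. Plots were made in Python 3.11.15 using matplotlib 3.10.9.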

Additional observations from a re-analysis of the deposited data

How the results depend on the processing

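The 43 log2 fold changes were refitted under quantile normalization, median ratio scaling, no variance trend, and no filter. A mean of at least 5, a pseudocount of 0.1, a replicate block, and each library left out were also used. All 555 values stayed within 1 SD of the value reported, but this bound could hardly be crossed. Leaving out 1 of 3 libraries moves a line's mean by less than 1 SD of that line. No variance trend, no filter, a mean of at least 5, and the replicate block leave a gene's log2 fold change unchanged. Without OVCAR5 replicate 3, ASNS moved from -1.46 to -2.46 and TRIB3 from -1.33 to -2.05. A sign changed for 10 genes (EPRS, RARS, HARS, NARS, TARS, VARS, EIF2AK4, ATF3, DDIT3, and XPOT), each with a library left out and each at 0.28 or less in size, while 28 genes were lower and 4 higher in OVCAR5R under every alternative. No member and no gene of the other lists was called by limma under any of them. The called genes of all genes tested, 14, ranged from 0 without OVCAR5R replicate 3, where 858 had an unadjusted p under 0.05, to 24 without OVCAR5 replicate 2, and were 4 without OVCAR5 replicate 1 or OVCAR5R replicate 1 and 2 without OVCAR5R replicate 2. Whether same-numbered libraries were paired is not given in the sources used here. Deviations of same-numbered libraries had r of -0.004, 0.176, and -0.119, and those of differently numbered libraries ran from -0.193 to 0.251. These values cannot show that a pairing was absent. With the replicate block 5 genes were called. The median of the complex synthetases ranged from -0.20 to -0.07 with a library left out and was -0.05 after subtraction of neighboring genes, an alternative chosen after seeing the data. SLC7A1 ranged from -0.43 to 0.07 and turned sign without OVCAR5 replicate 1 (0.04) or 3 (0.07) or OVCAR5R replicate 2 (0.03). The causes were not tested. Values near 1, as for ALDH1L2, are limited by the added 1.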
